A study of Drosophila melanogaster with 3 samples.

Results

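The nuclear genes for subunits of the respiratory chain and of ATP synthase were examined for binding of Neu2 in early Drosophila melanogaster embryos. They were the protein-coding genes on arms 2L, 2R, 3L, 3R, 4 and X whose symbol began with ND-, UQCR-, COX and a digit, ATPsyn or Sdh and a letter A to D, together with blw. This gave 88 genes of 13945 protein-coding genes, of which 40 belonged to complex I, 7 to complex II, 9 to complex III, 16 to complex IV and 16 to complex V. They are called respiratory genes below, and all protein-coding genes include them.

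Binding was measured by chromatin immunoprecipitation and sequencing (ChIP-seq) with an antibody against GFP. The source was a single transgenic line that stably expresses Neu2, a zinc-finger protein, with GFP at its C-terminus. Whole embryos of mixed sex were 2 to 4 h old, and 3 biological replicates formed the only group, so that no groups of embryos could be compared and signal from all cells of the embryo was pooled. The authors deposited a relaxed list of 30000 calls for each replicate and for the pooled reads, and an optimal list of 1471 peaks past their threshold of irreproducible discovery rate.

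Oxidative phosphorylation takes place in the inner mitochondrial membrane. Complexes I and II feed electrons into ubiquinone, complex III passes them to cytochrome c, complex IV transfers them to oxygen, and complex V uses the proton gradient to make ATP. Complex II is also the succinate dehydrogenase of the TCA cycle. All subunits of complex II are encoded in the nucleus, whereas the other complexes combine nuclear subunits with some from the mitochondrial genome. The early fly embryo inherits its mitochondria and most of its respiratory transcripts from the mother. Neu2 belongs to the ZAD family of zinc-finger proteins, which is large in insects.

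The sequences around 5 of the summits at respiratory genes are shown, because the first 4 mark the peaks that follow that of UQCR-6.4 in strength and ND-ASHI marks a peak shared with another gene of mitochondrial metabolism. Each is read on the strand of the named gene, from the RefSeq genome of build dm6, and the capital marks the summit base. The stretches lie at chr3L:12138755-12138855 on the minus strand for ND-SGDH, at chr3L:20491653-20491753 on the plus strand for ND-39 and at chr3R:23760601-23760667 on the minus strand for SdhD, where it stops at the start of the first exon. Those of ND-20 and ND-ASHI lie at chrX:15986895-15986995 and chrX:6679344-6679444, both on the minus strand.
ND-SGDH: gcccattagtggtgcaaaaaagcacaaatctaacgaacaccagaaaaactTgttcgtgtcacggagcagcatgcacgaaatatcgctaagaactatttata
ND-39: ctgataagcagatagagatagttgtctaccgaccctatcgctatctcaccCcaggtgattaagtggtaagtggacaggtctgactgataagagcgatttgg
SdhD: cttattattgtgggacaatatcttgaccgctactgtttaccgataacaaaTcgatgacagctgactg
ND-20: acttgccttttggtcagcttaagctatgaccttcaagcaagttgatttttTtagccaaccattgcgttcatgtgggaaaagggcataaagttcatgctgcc
ND-ASHI: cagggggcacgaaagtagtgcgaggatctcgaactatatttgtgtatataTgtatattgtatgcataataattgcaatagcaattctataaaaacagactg
The stretch of ND-39 was 53.5% A or T, and that of ND-ASHI was 65.3%. None of the 5 held any of the promoter words described at the end of the results.

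At 14 respiratory genes an optimal summit was found no farther than 1000 bp from a transcription start site (TSS), a share of 15.9% (95% exact binomial interval 8.98 to 25.2%), against 8.73% of all protein-coding genes. Genes with such a peak are called bound. They came from every complex, as 9 of 40 genes of complex I, 1 of 7 of complex II, 1 of 9 of complex III, 2 of 16 of complex IV and 1 of 16 of complex V. The signal, the authors' enrichment value for each call, ranged from 88.8 to 309 over the 15 peaks at these genes with a median of 130, within an optimal list whose signal ran from 88.6 to 998. Intervals here cover the counting error of genes only, and no test was made, since the genes were chosen with earlier results of these data known. With each peak given to its nearest TSS alone, 7 respiratory genes were bound (7.95%, against 6.22% of all genes). When a replicate was left out and peaks had to be matched in both others, 7 were bound without replicate 1, 8 without replicate 2 and 7 without replicate 3, against 4.72%, 5.26% and 5.16% of all genes. The lists held no read counts, so that the depth of each library was unknown. Replicates differed in scale, with medians over the optimal peaks of 47.0 (replicate 1), 47.8 (replicate 2) and 33.1 (replicate 3), and their signals were therefore compared after division by these medians (relative signal).

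In complex I, which takes electrons from NADH, bound genes encoded parts of both arms of the enzyme, 4 of 15 in the peripheral arm (26.7%, interval 7.79 to 55.1%) and 5 of 17 in the membrane arm (29.4%, interval 10.3 to 56.0%), against 8.73% of all protein-coding genes. The assignment of subunits to arms was made after the values were seen and did not cover all 40 genes of the complex. All bound genes of the complex fell within the arms, which raises both shares. Over all 40 genes the share was 22.5% (interval 10.8 to 38.5%). ND-SGDH (FBgn0011455), an accessory subunit of the membrane arm, had the strongest peak of the complex, at 3L from 12138585 to 12139024 with a pooled signal of 188 and rank 219 in the list. Replicate 1 gave 79.2, replicate 2 gave 48.9 and replicate 3 gave 56.6, and its relative signal was 1.47 ± 0.390 (SD, n = 3). Replicate 2 was the lowest here on the relative scale, and all 3 values lay above the replicate medians. The summit was 221 bp upstream of ND-SGDH between genes and 63 bp from a TSS of RhoGAP68F.

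ND-39 (FBgn0037001), an accessory subunit of the peripheral arm that binds NADPH, had a peak at 3L from 20491483 to 20491922 with a signal of 155. The replicates gave 73.2, 45.4 and 36.6 in order, and the relative signal was 1.20 ± 0.316 (SD, n = 3). This summit lay 379 bp upstream of the gene, in an intron of ZnT77C, and ND-39 owned the nearest TSS. ND-20 (FBgn0030718), the core subunit that holds the last iron-sulphur cluster before ubiquinone, had a peak at X from 15986725 to 15987164 with a signal of 141. Its replicates gave 54.2, 46.9 and 37.4, and the relative signal of 1.09 ± 0.0940 (SD, n = 3) had one of the smallest spreads among the bound genes. The summit was 137 bp upstream of ND-20, between genes.

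The other 6 peaks of complex I were weaker, and their relative signals averaged below 1, the median of the optimal list. ND-MWFE (FBgn0085468), a short membrane-arm protein, had a pooled signal of 132 and replicate signals of 55.7, 33.7 and 34.9. ND-B8 (FBgn0040705), of the peripheral arm, had a pooled signal of 114 and replicate signals of 59.3, 35.5 and 24.4, with replicate 1 well above the other two. The membrane-arm genes ND-ASHI (FBgn0029888) and ND-B15 (FBgn0033961) had pooled signals of 112 and 107. ND-15 (FBgn0031228), also of the membrane arm, had 91.2, and ND-51 (FBgn0031771), the core subunit that binds NADH and FMN, had 88.8, close to the lowest optimal signal. ND-51 was the single bound gene without a strong call in any replicate: its signals of 29.7, 36.9 and 23.2 were each below the lowest signal among the 1471 strongest calls of that replicate, which was 34.2, 38.1 and 26.8.

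In complex II, the peak lay at SdhD (FBgn0039112), which encodes a small membrane anchor of succinate dehydrogenase, at 3R from 23760397 to 23760836 with a pooled signal of 142. Its summit was the one nearest to a TSS among the bound respiratory genes, 17 bp upstream and between genes. The replicates differed most here apart from the weaker peak at UQCR-6.4: replicate 1 gave 97.0, replicate 2 gave 12.8 and replicate 3 gave 30.0, and the relative signal was 1.08 ± 0.910 (SD, n = 3). Replicate 1 stood far above the other two, and without it the relative signal was 0.588. SdhA (FBgn0261439), the flavoprotein subunit, came next in the pooled list with a signal of 75.5, below the optimal list. Its replicates gave 20.6, 42.5 and 14.97, of which only replicate 2 was among the strongest 1471 calls. SdhAL had a pooled signal of 66.2 and SdhC, the other membrane anchor, had 41.6.

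Complex III held the strongest peak of all respiratory genes. It lay at UQCR-6.4 (FBgn0034245), a small accessory subunit, at 2R from 17572793 to 17573232 with a pooled signal of 309 and rank 67 of 1471. The replicates gave 126, 101 and 94.1, and the relative signal was 2.55 ± 0.379 (SD, n = 3), so that every replicate was at least at 2.12 times its median. The summit was 229 bp upstream of UQCR-6.4 but fell in a coding exon of CG42239, whose own TSS was nearer, at 184 bp. A further optimal peak of signal 133 had its summit 436 bp upstream of UQCR-6.4, in the 3′ UTR of CG42239 and nearest to Rab4, a GTPase of endosome recycling. Within 200 bp of that summit, the strongest calls of replicates 2 and 3 were those already counted for the stronger peak. Replicate 1 had a weak call of 13.3. The relative signal of 1.75 ± 1.32 (SD, n = 3) of the further peak therefore did not rest on separate calls in replicates 2 and 3. Each replicate also had a call within 100 bp of this summit, and with that matching the relative signal was 0.753.

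Among the other complex III genes the highest pooled signals were 62.1 at UQCR-11, 60.1 at UQCR-C2 and 56.3 at UQCR-14, all below the optimal list. UQCR-C2 encodes a core subunit. UQCR-C1, the other core subunit, was the one complex III gene without any pooled call within 1000 bp.

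In complex IV, cytochrome c oxidase, peaks lay at COX5A (FBgn0019624), a subunit on the matrix side, and COX6B (FBgn0031066), a subunit on the side of cytochrome c. COX5A had a pooled signal of 127 at 3R from 11819315 to 11819754. Its signals of 33.2, 41.6 and 41.8 were even before scaling, and its relative signal was 0.946 ± 0.286 (SD, n = 3), with replicate 1 the lowest. The summit lay 64 bp upstream of the nearest COX5A start site, within an intron of a longer COX5A transcript. COX6B had a pooled signal of 92.0 and replicate signals of 39.4, 40.1 and 14.4, with replicate 3 the lowest. The genes that came next were COX7AL2 with 74.5, COX8 with 69.6 and COX4L with 65.1.

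In complex V, ATP synthase, the peak lay at blw (FBgn0011211), the alpha subunit of the catalytic head, at 2R from 22798780 to 22799219 with a pooled signal of 130. The signals of 59.8, 47.8 and 44.0 placed all 3 replicates at or above their medians, and the relative signal was 1.20 ± 0.176 (SD, n = 3). The summit was 99 bp upstream of blw, between genes. The signals above are of the strongest call within 200 bp, which in replicates 2 and 3 peaked at -166 bp from the summit in genome coordinates. These replicates also had calls within 100 bp of the summit. With matching within 100 bp the relative signal was 0.824. ATPsynbeta, which encodes the partner of the alpha subunit in the catalytic head, had a pooled signal of 46.4 at most and no optimal peak, a gene named here after its value was seen. The next genes of the complex were ATPsynE with 71.5, ATPsynB with 50.5 and ATPsynF with 47.0.

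**Figure D1:**
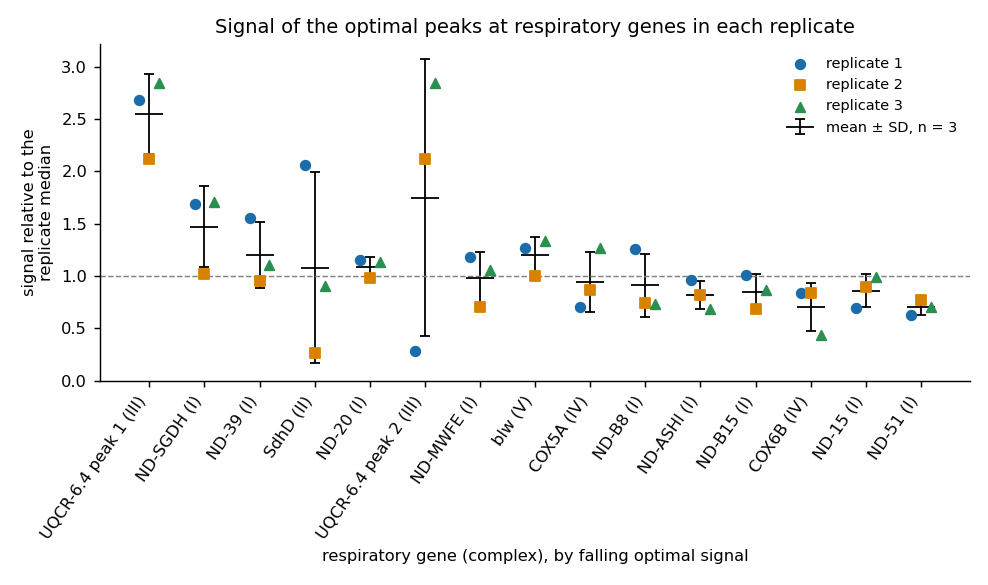
Relative signal (replicate signal divided by the median of that replicate over all optimal peaks) of the 15 optimal peaks at respiratory genes, ordered by pooled signal. Points are replicates 1 to 3, bars are the mean ± SD (n = 3), and the dashed line marks the median of each replicate. The stronger UQCR-6.4 peak stands highest at 2.55, while SdhD and the weaker UQCR-6.4 peak have the widest spread. At the weaker UQCR-6.4 peak, the points of replicates 2 and 3 are the calls of the stronger peak, the strongest within 200 bp.

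The pooled list extended this picture to weaker calls. A pooled call lay within 1000 bp of a TSS of 73 respiratory genes (83.0%), against 60.0% of all protein-coding genes. With genes that had no call counted as 0, the median of the strongest pooled signal per gene was 42.2 at respiratory genes (middle 50% of genes 28.6 to 65.4) and 31.7 at all protein-coding genes (0 to 51.2), where the lowest signal in the pooled list was 26.1. By complex the median was 43.3 for complex I, 41.6 for complex II, 47.7 for complex III, 44.0 for complex IV and 38.7 for complex V, close to each other beside the range within each complex. The relaxed list holds background as well as peaks, per the text deposited with the files, so that a weak call by itself says little.

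As calls were added from the strongest down, respiratory genes were reached in a higher share than all protein-coding genes at each of the depths counted. The 500 strongest pooled calls reached 4 respiratory genes (4.55%), against 3.39% of all protein-coding genes. The 1000 strongest reached 11 (12.5% against 6.38% of all genes), the 5000 strongest reached 31 (35.2% against 23.0% of all genes), and the 10000 strongest reached 48 (54.5% against 34.9% of all genes).

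**Figure D2:**
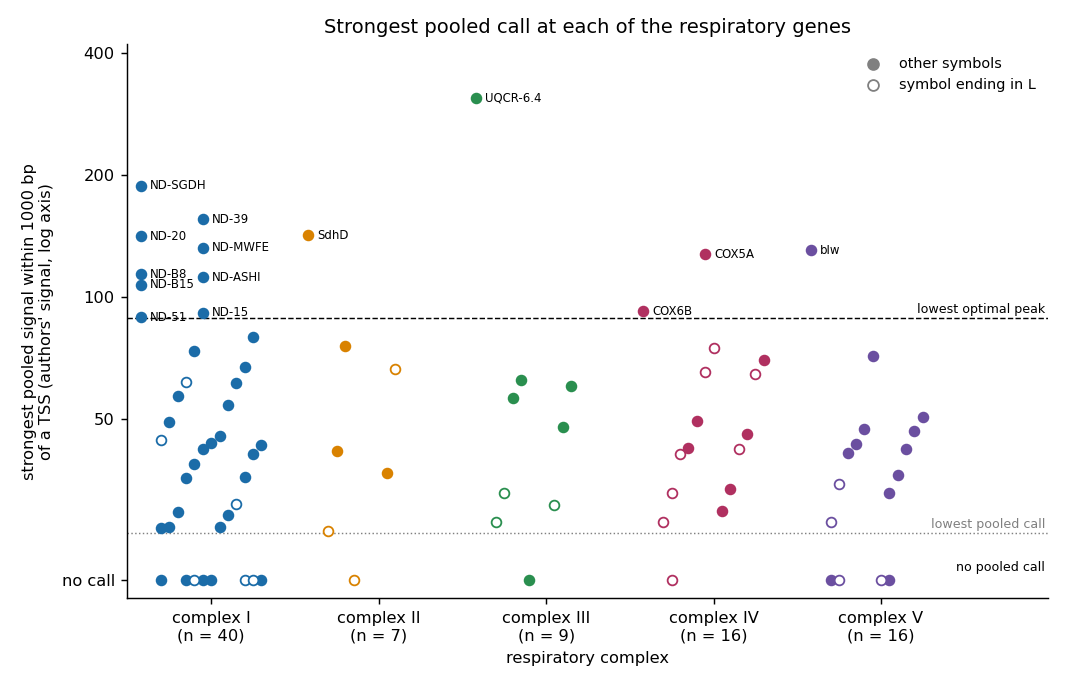
Strongest pooled signal within 1000 bp of a TSS for each of the 88 respiratory genes by complex, on a log axis. Filled points are genes with other symbols, open points genes whose symbol ends in L, and points at the bottom have no pooled call. The dashed line is the lowest signal of the optimal list, and the 14 labelled genes above it include no open point.

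Genes whose symbol ends in L, with or without a digit, are mostly copies of another subunit gene, and many such copies are known from adult flies for expression in the testis. ND-MNLL also ends in L but is named for its residues, and it was counted with the other genes. None of the 24 copies had an optimal peak (upper bound of the 95% exact interval 14.2%), and 14 of the 64 other respiratory genes did (21.9%, interval 12.5 to 34.0%), against 8.73% of all protein-coding genes. The intervals of copies and others overlap, and that of the copies includes the share of all genes. In the pooled list 17 of the 24 copies (70.8%) and 56 of the 64 other genes (87.5%) had a call, against 60.0% of all protein-coding genes, so that the copies were near this share (interval 48.9 to 87.4%). The median of the strongest signal was 30.7 for the copies, 46.1 for the other respiratory genes and 31.7 for all protein-coding genes. The strongest copy was COX7AL2, whose call with a signal of 74.5 lay 964 bp downstream of a TSS. For 20 of the copies the gene whose symbol they extend was also a respiratory gene, a comparison made after the values were seen. With no call counted as 0, the strongest pooled signal of the copy was lower than that of its partner in 15 pairs and higher in 5. ND-51 and COX7A each served as partner more than once, so that the pairs are not all separate. Several of the values also lay close to the lowest pooled signal of 26.1. UQCR-6.4L reached 32.7 against 309 at UQCR-6.4, while ND-20L and ND-24L had no pooled call, against 141 at ND-20 and 79.4 at ND-24. The 5 higher copies were COX4L with 65.1 against 45.8 at COX4, COX7AL2 with 74.5 against 49.2 at COX7A, COX5BL with 40.8 against 29.6 at COX5B, ND-B14.5AL with 44.3 against 26.9 at ND-B14.5A, and ATPsynGL with 27.7 against no call at ATPsynG.

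**Figure D3:**
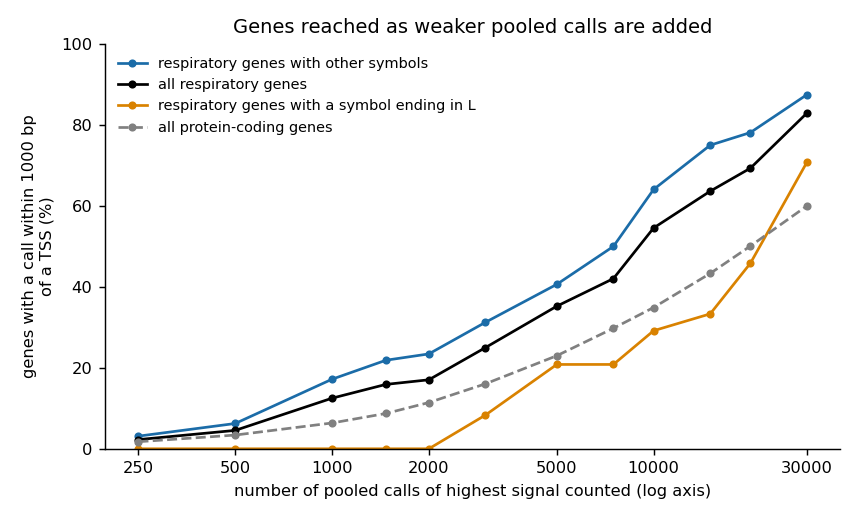
Share of genes with a call within 1000 bp of a TSS (%) as pooled calls are counted from the strongest down (log axis). Lines are respiratory genes with other symbols (n = 64), all respiratory genes (n = 88), those with a symbol ending in L (n = 24) and all protein-coding genes (n = 13945). The line of symbols ending in L stays at 0 through the 2000 strongest calls and reaches 70.8% over the whole list, while all respiratory genes reach 83.0% and all protein-coding genes 60.0%.

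Respiratory genes outside the optimal list had weaker pooled calls or none, which follows from how the lists relate. The 1471 strongest pooled calls reached 14 respiratory genes and 1217 protein-coding genes, as the optimal list did. The highest of complex I were ND-24, a core subunit of the peripheral arm, with a pooled signal of 79.4 at 6 bp upstream of a TSS, ND-B17.2 with 73.5 and ND-B14.5B with 66.9. ND-24 had 38.3 in replicate 1, 30.9 in replicate 2 and 11.1 in replicate 3, so that replicate 1 alone placed it among the strongest calls. No pooled call was present at 15 respiratory genes. Besides UQCR-C1 and 7 of the copies, these were ND-13A, ND-B22, ND-B17, ND-ACP, ND-AGGG, ATPsynG and ATPsyndelta.

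Replicates were compared at an equal number of calls, the 1471 strongest of each. Such a call lay within 1000 bp of a TSS of 13 respiratory genes in replicate 1 (14.8%, against 8.74% of all protein-coding genes), 12 in replicate 2 (13.6% against 8.43% of all genes) and 12 in replicate 3 (13.6% against 8.91% of all genes). All 3 replicates had one at 5 respiratory genes (5.68%, interval 1.87 to 12.8%), against 4.40% of all protein-coding genes, a share near the background. Without replicate 1 there were 7 such genes (7.95%, against 5.20% of all genes), without replicate 2 there were 8 (9.09% against 5.59%) and without replicate 3 there were 7 (7.95% against 5.44%). The 5 were UQCR-6.4, ND-SGDH, ND-39, ND-20 and blw. Exactly 2 replicates had such a call at 7 respiratory genes (7.95%) and 1 replicate at 8 (9.09%), while 68 had none (77.3%). Over all protein-coding genes these numbers were 613 with all 3 replicates, 425 with 2 (3.05%), 947 with 1 (6.79%) and 11960 with none (85.8%). Within the whole relaxed lists, 46 respiratory genes had a call in every replicate (52.3%), against 36.8% of all protein-coding genes.

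Of the 15 peaks at respiratory genes, 5 were matched within 200 bp by one of the 1471 strongest calls of all 3 replicates (33.3%), against 45.7% of the gene and peak pairs of all protein-coding genes. A further 8 were matched in 2 replicates, 1 in 1 replicate and the peak at ND-51 in none. Among the 8 was the weaker UQCR-6.4 peak, where the strongest calls of replicates 2 and 3 were also those of the stronger peak. These shared values enter the medians over the 15 peaks. The median relative signal was 0.981 at the respiratory genes and 1.01 over the pairs of all protein-coding genes, so that the peaks at respiratory genes were of ordinary strength for this list. By replicate, the median over the 15 peaks was 1.15 (replicate 1), 0.870 (replicate 2) and 1.06 (replicate 3).

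All 15 summits lay upstream of the nearest TSS of the respiratory gene, at 17 to 436 bp, and all were within 500 bp. Measured from the 5′-most TSS of each gene, 13 of the 15 lay upstream, and those of COX5A and ND-15 lay inside the gene. Over the 1341 gene and peak pairs of all protein-coding genes, 77.4% lay upstream and 82.5% within 500 bp. The median offset was -124 bp at respiratory genes and -124 bp over the pairs of all genes, with negative values upstream. When the summits of the matching calls in each replicate were used instead, the median at respiratory genes was -139 bp in replicate 1, -137 bp in replicate 2 and -152 bp in replicate 3 (SD 8.14 bp). The window of 1000 bp did not cut through a cluster of peaks: the bound gene farthest from its nearest summit was ND-39 at 379 bp, and the nearest genes outside were ATPsynD at 1365 bp and COX7AL2 at 1440 bp.

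**Figure D4:**
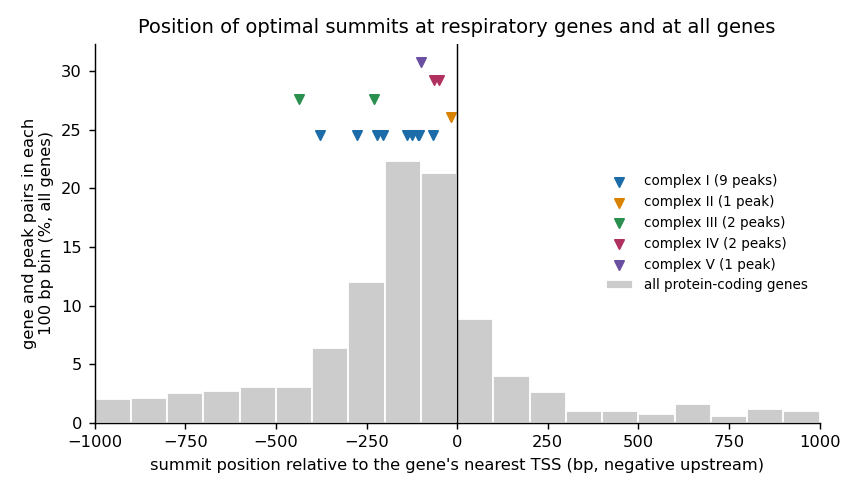
Position of optimal summits relative to the nearest TSS of the gene (bp, negative upstream). Triangles are the 15 peaks at respiratory genes, a row for each complex, and grey bars are the share of the 1341 gene and peak pairs of all protein-coding genes in bins of 100 bp. All triangles lie left of the TSS, where 77.4% of the pairs of all genes also lie.

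Many of these peaks could not be assigned to the respiratory gene alone. For 12 of the 15 a TSS of another protein-coding gene also lay within 1000 bp, and for 8 of them that TSS was the nearer one. The nearer genes were RhoGAP68F at ND-SGDH, CG42239 and Rab4 at UQCR-6.4, Fum1 at ND-ASHI, CG10151 at ND-B15, CG33932 at COX6B, Pus10 at ND-15 and CG13994 at ND-51. Fum1 encodes fumarase of the TCA cycle, and its peak and that of ND-ASHI were the same one, of signal 112, 246 bp upstream of Fum1 and 276 bp upstream of ND-ASHI in a Fum1 intron. Its replicates gave 45.1, 39.2 and 22.7. At ND-MWFE, 109 bp from the summit, the TSS of TppII, a peptidase, lay at 112 bp. COX5A and ND-B8 owned the nearest TSS as well, at 64 and 66 bp, with glo at 115 bp and Secp43 at 107 bp on the other side.

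A divergent TSS, one of another gene on the opposite strand and within 1000 bp upstream, was present at 45 respiratory genes (51.1%) and at 36.2% of all protein-coding genes. Of the respiratory genes with such a TSS, 12 of 45 had an optimal peak (26.7%, interval 14.6 to 41.9%), against 15.1% of all protein-coding genes so arranged. Of those without, 2 of 43 had one (4.65%, interval 0.568 to 15.8%), against 5.08% of all genes without. The bound genes without a divergent TSS were SdhD and ND-20. At ND-39 the divergent TSS, of ZnT77C, lay 1787 bp from the summit and upstream of another ND-39 start site, so that this peak was not at the divergent pair. The intervals of respiratory genes with and without a divergent TSS overlap slightly, and the part of the arrangement in the count of bound respiratory genes was not tested. Most genes with a symbol ending in L had no divergent TSS, and none of them was bound. The contrast by arrangement and that of copies against other genes therefore share many genes and are not separate observations. Respiratory genes also had more annotated start sites: 60.2% had a single TSS, against 73.5% of all protein-coding genes, and of those with a single TSS 6 of 53 were bound (11.3%), against 6.32% of all genes with a single TSS.

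**Figure D5:**
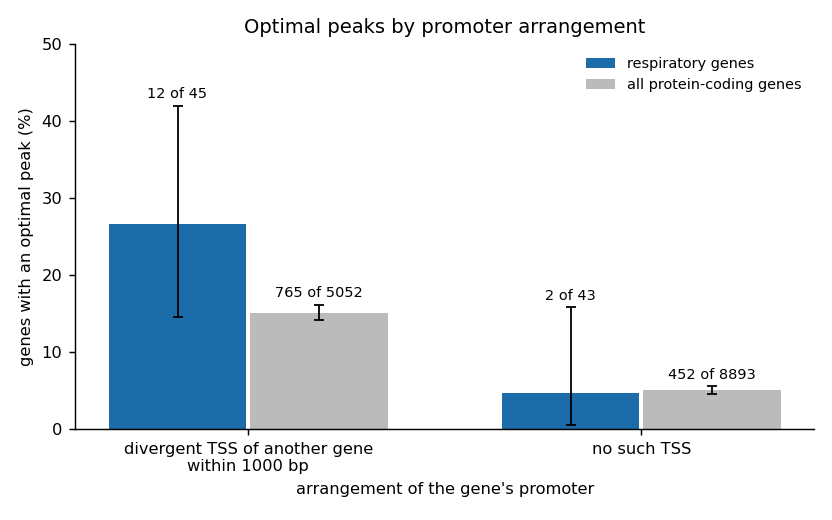
Share of genes with an optimal peak within 1000 bp of a TSS (%), for genes with and without a divergent TSS of another gene within 1000 bp. Blue bars are respiratory genes, grey bars are all protein-coding genes, error bars are 95% exact binomial intervals and the counts stand above the bars. With a divergent TSS the shares are 26.7% of respiratory genes and 15.1% of all genes, and without one 4.65% and 5.08%.

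Other nuclear genes of mitochondrial metabolism were read from lists alongside. Of 9 chain genes that the symbols do not catch, Cyt-c-p and levy had an optimal peak. This was 22.2%, against 8.73% of all protein-coding genes, in a list too short to read as a difference. Cyt-c-p, the cytochrome c of somatic tissues, had a pooled signal of 193 at 11 bp downstream of its TSS and replicate signals of 64.5, 81.9 and 40.9, and all 3 replicates had a strong call there. At levy, a complex IV subunit, the signal was 110, but wmd owned the nearest TSS. Of 14 genes of the TCA cycle, 4 had an optimal peak (28.6%, against 8.73% of all protein-coding genes), again in a short list. Scsalpha1 and ScsbetaA, subunits of succinyl-CoA ligase, had pooled signals of 330 and 263, at 15 bp and 116 bp downstream of a TSS. The replicates gave 157, 72.1 and 95.3 at Scsalpha1, and 72.8, 123 and 71.8 at ScsbetaA. The others were mAcon1, the mitochondrial aconitase, with 114 at 132 bp upstream, where CG43345 owned the nearest TSS at 89 bp, and Fum1 with the peak shared with ND-ASHI.

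Of 16 genes for upkeep, expression and regulation of the mitochondrial genome, 2 had an optimal peak (12.5%, near the 8.73% of all protein-coding genes): mtSSB, the mitochondrial single-stranded DNA binding protein, with 110, and PolrMT, the mitochondrial RNA polymerase, with 89.1. None of 8 genes of carriers and channels had one, a list too short to set against that share. By the same count an optimal peak was present at 10 of 73 mitochondrial ribosomal protein genes (13.7%) and 37 of 92 cytoplasmic ribosomal protein genes (40.2%), against 8.73% of all protein-coding genes, so that respiratory genes at 15.9% were near the mitochondrial set and well below the cytoplasmic one. No call of any list lay on the mitochondrial genome. The tools for alignment and peak calling are not given, so that it is unknown whether calls there were possible.

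Promoter words were counted in 300 bases, from 250 bp upstream to 50 bp downstream of the 5′-most TSS, on both strands. The window of ND-15 was placed at its start site at 2L 114726, while its peak summit lay at 155231. The words counted for this bound gene are therefore not those of the start site at the peak. The DNA replication-related element TATCGATA was present in 9 respiratory promoters (10.2%), against 9.36% of all promoters. The core promoter word Motif 1, searched as GGTCACAC, was present in 16 respiratory promoters (18.2%), against 7.70% of all promoters. It was in 1 of the 24 promoters of copies and in 15 of the 64 others, and in 3 of the 14 bound genes, UQCR-6.4, ND-MWFE and COX5A, as well as 13 of the 74 without an optimal peak. The element of nuclear respiratory genes, searched as TTACGTAA, TTATATAA, TTACATAA or TTATGTAA, was present in 5 respiratory promoters (5.68%), against 5.18% of all promoters, and ND-SGDH was the one bound gene among them. CGCATGCG, the core of the palindrome of NRF1 in mammals, was in none of the 88 (0.624% of all promoters held it). The E box CACGTG was in 4 (4.55%), against 4.20% of all promoters, and in no bound one.

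Within 201 bp centred on the summits, TATCGATA was present at 1 of the 15 peaks of respiratory genes, against 5.37% of all optimal peaks, and Motif 1 at 0 of 15, against 1.90% of all optimal peaks. The other words were at 0 of the 15 as well. Respiratory promoters were richer in A and T, at 64.8%, against 60.9% for all promoters, which bears on how often words of a given composition occur. A match is a count of letters only, and its part in the binding was not tested.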

How the data were processed

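ChIP-seq peak lists of build dm6 were used. Per the text deposited with the files, the authors made a relaxed list of peaks and background for each replicate and for the pooled replicates, and an optimal list past their IDR threshold. The signal value that the authors gave each call was used to rank and compare calls. The −log10 q-value of each call, also deposited, was not used for any result. The summit offset of each call, another measure deposited by the authors in bp, gave the summit. The tools for alignment and peak calling and the IDR threshold are not given in the sources used here. The control library was not analysed here, and the dm3 lists were not used, since no dm3 annotation was at hand. The number of per-sample columns left out was 0, and read depth is unknown from these lists.

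A gene counted as bound when a summit lay within 1000 bp of the 5′ end of any of its transcripts in Ensembl release 115 (annotation 6.54), on the 6 main arms. Optimal summits were matched to the strongest replicate call within 200 bp. Replicate lists were compared at 1471 calls each. Genes were named by rule: all bound respiratory genes, the 3 next in pooled signal of each complex, those just outside the window and bound genes of the related lists. Other names are marked as chosen after values were seen, or belong to neighbours and absent calls. The genes, lists and words were chosen with earlier results of these data known. A single group allowed no test between samples, and no chance test of the gene list was made. Scripts (python 3.11.15, numpy 2.4.6, pandas 2.3.3, scipy 1.17.1, matplotlib 3.10.9) were tested on simulated data. Of the related lists, Nc73EF and tam were other names of Ogdh and PolG1 and were counted once. Alternatives are given in the closing section.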

Additional observations from a re-analysis of the deposited data

How the results depend on the processing

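The count of 14 bound respiratory genes depended on how a peak was counted. With windows of 500 bp and 2000 bp it was 14 and 16 (15.9% and 18.2%), against 7.36% and 11.0% of all protein-coding genes. With each peak given to its nearest TSS alone it was 7 (7.95%, against 6.22% of all genes). With peaks matched in all 3 replicates it was 5 (5.68%, against 4.12% of all genes), and with peaks above the median of the list it was 8 (9.09%, against 4.85% of all genes). With each replicate left out in turn, which kept the peaks matched in both of the others, it was 7 to 8, against 4.72 to 5.26% of all genes. The cause was not tested beyond the construction of these counts, which keep fewer peaks. The share of respiratory genes was above that of all genes in each of these settings, by 1.28 to 2.16 times. The settings draw on the same list of peaks and are not independent of each other. With the nearest TSS alone and with peaks matched in all 3 replicates, the shares of 7.95% and 5.68% were near those of all genes. In the pooled list, taking 2 times as many calls as in the optimal list gave 22 genes (25%, against 15.8% of all genes), and all calls gave 73 (83.0% against 60.0%). Of the 5 respiratory genes with a strong call in every replicate, the count became 12 with 3000 calls per replicate (13.6%, against 7.16% of all genes), 46 with all calls (52.3% against 36.8%), and 7 to 8 with a replicate left out (7.95 to 9.09%, against 5.20 to 5.59%). The median offset was the same in every alternative run, and the median relative signal moved by less than its spread between replicates. Of 74 relative signals of single peaks under alternatives, 72 moved by less than 1 SD. The exceptions were ND-15 at 0.672 and blw at 0.824 with matching within 100 bp. SdhD and the weaker UQCR-6.4 peak had SDs so wide that moves of over 1.5 times stayed within them, to 0.588 for SdhD without replicate 1 and to 0.753 for UQCR-6.4 with matching within 100 bp. Copies stayed at 0 bound genes except for 1, COX7AL2, with the window of 2000 bp. With ND-MNLL among them, an alternative chosen after seeing the data, 0 of 25 were bound. No paired analysis was possible because the replicates form a single group. The peak lists limit depth: weak calls and background cannot be told apart here, and counts per complex are small.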
